A study of Arabidopsis thaliana with 18 samples.

Results

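The transcription factor genes BZIP34 (AT2G42380) and BZIP61 (AT3G58120) of Arabidopsis thaliana are described here over every array of a study of jasmonate treatment in light-receptor and repressor mutants. Each gene had 1 probe set that the platform annotation paired with it alone, 13420322 for BZIP34 and 13461438 for BZIP61, so the account covers 2 of the 5689 genes tested and of 38408 probe sets in all. Both genes were chosen by their change between Control and methyl jasmonate (MeJA) samples, known from earlier work on these same arrays. Their MeJA responses are therefore given below as descriptions, with no test. Differences between genotypes within a treatment are another contrast and were fitted with a test, but they reuse the same Control and MeJA arrays. Their p-values are therefore not free of the choice and are no independent support.

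The bZIP proteins bind DNA as dimers, through a basic region that contacts the DNA and a leucine zipper that joins the partners. BZIP34 and BZIP61 are close relatives in group E of the family. Both carry a proline in the zipper that hinders pairing of like with like, and in binding assays they paired with members of groups I and S instead. BZIP34 is known from pollen, where it takes part in building the pollen wall and in lipid metabolism, and a role for BZIP61 is less well described. MeJA is taken up by plants and converted to the active jasmonate, which leads to the destruction of JAZ repressors such as JAZ10 and so frees the MYC factors that switch on wound and defence genes. Phytochrome B (PHYB) is the main red-light receptor of green plants, and plants without it grow as if shaded and respond less to jasmonate.

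RNA came from whole plants 4 weeks old, grown at 22 °C with 8 h of light and 16 h of dark. The 4 genotypes were wild-type Col-0 (labelled Col), phyb-9 (phyb), jaz10, and the double mutant jaz10phyb-9 (jaz10phyb). Plants were sprayed with 250 µM MeJA or with a water mock (Control), were harvested after 3 h, and were pooled, at least 4 to a sample. The phyb plants gave 3 arrays per treatment and each other genotype gave 2, for 18 single-colour arrays in all. Nothing in the labels says that the pools of a group were grown apart, so p-values measure only the spread between these pools.

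On 2 arrays the treatment label went against the jasmonate response. The mean log2 signal of the jasmonate oxidase genes JRG21 (JOX3, AT3G55970), AT2G38240 (JOX4) and AT5G05600 (JOX2), which inactivate the hormone, was 7.15 on phyb Control 2, against 4.23 and 4.77 on the other phyb Control arrays. It was 4.24 on phyb MeJA 3, against 6.67 and 6.5 on the other phyb MeJA arrays. Results that rest on these arrays are given with the labels as they stand, on 18 arrays, and without these 2, on 16 arrays. Probe sets for PHYB and JAZ10 were not analysed here, so the genotype labels were not checked. Of the markers, 1 of 7 leaf genes had a named probe set, RCA (Rubisco activase), with signals between 2827 and 3508. Of 6 root genes 2 had one, and PYK10, a beta-glucosidase, and EXPA7 summed to between 702 and 1343 on Control arrays and between 551 and 1660 on MeJA arrays. Without the 2 arrays these ranges were 702 to 997 and 1287 to 1660 and did not overlap. The share of all genes that separate by treatment in this way was not counted. The root sum was nearly all PYK10, which on those arrays rose after MeJA in every genotype, by 0.7 in Col to 1.15 in jaz10 (log2). The part of this sum in the results below was not tested. EXPA7, a root hair gene, reached at most 6.9, and the pollen genes AT5G45880 and VGD1 reached at most 5.28 and 7.71, all below the lowest array median of 14.87. The flower markers were not analysed here.

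In mock-sprayed plants BZIP34 was well above the middle of the array. Its signal was 103.5 and 148.2 on the Col Control arrays, 127.3 and 118.3 in jaz10, 123.3 and 134.5 in jaz10phyb, and 216.2, 59.59 and 180.2 on phyb Control 1, 2 and 3. The jaz10 and jaz10phyb arrays lay inside the range of Col, and the phyb arrays spanned the whole range of the others. Array 2 of phyb Control, the low one, is the array on which the oxidase genes were high.

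After MeJA the BZIP34 signal was 32.28 and 21.87 in Col, 25.05 and 28.59 in jaz10, 57.85 and 48.58 in jaz10phyb, and 56.29, 87.49 and 182.3 on phyb MeJA 1, 2 and 3. The Col and jaz10 arrays overlapped and lay below every array of the genotypes without PHYB. Array 3 of phyb MeJA, the high one, is the array on which the oxidase genes were low.

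BZIP61 was dimmer on its own probe set and had the same layout. In mock-sprayed plants its signal was 51.15 and 75.36 in Col, 55.17 and 57.64 in jaz10, 73.24 and 52.72 in jaz10phyb, and 150.4, 34.59 and 82.69 on phyb Control 1, 2 and 3. All groups overlapped, with phyb Control holding both the highest and the lowest array.

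After MeJA the BZIP61 signal was 11.42 and 10.88 in Col, 14.39 and 11.1 in jaz10, 28.53 and 20.73 in jaz10phyb, and 36.03, 46.37 and 105.8 on phyb MeJA 1, 2 and 3. The Col and jaz10 values were below the median signal of their own arrays, which lay between 14.87 and 17.5 over all arrays. How far such signals exceeded background was not tested, which leaves the size of the BZIP61 change in Col and jaz10 uncertain. Signals of 2 probe sets have no common scale, and BZIP34 being brighter than BZIP61 says nothing of which transcript was more abundant.

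**Figure D1:**
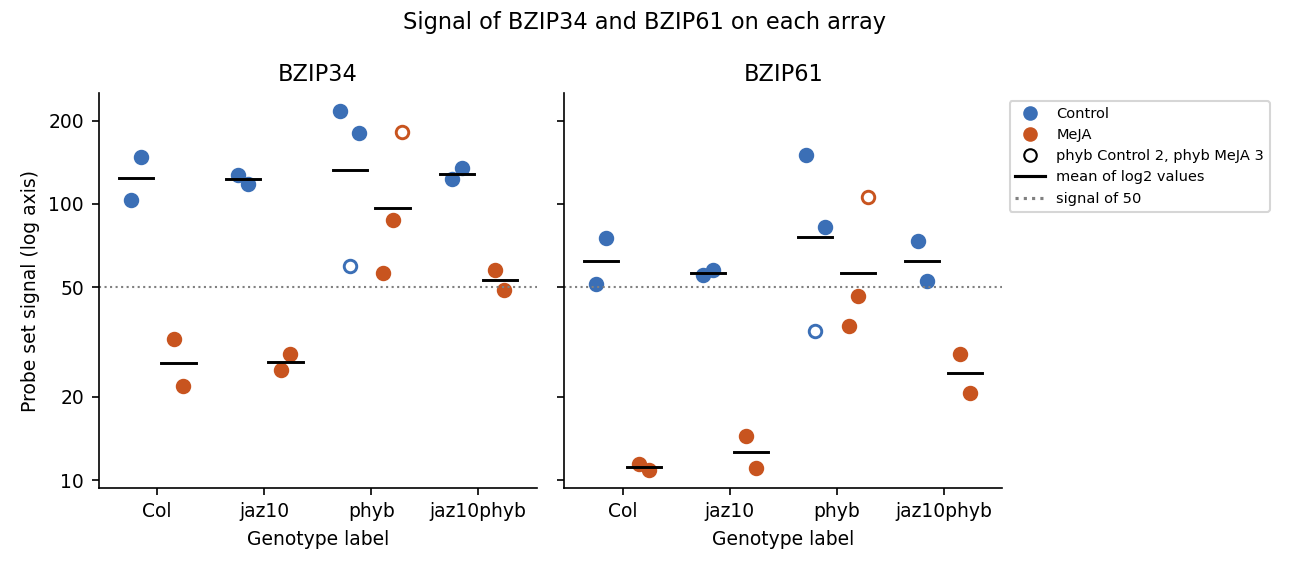
Signal of the BZIP34 and BZIP61 probe sets (vertical, log axis) on each of the 18 arrays, by genotype label (horizontal) and treatment (colour); a point is an array, open points are phyb Control 2 and phyb MeJA 3, a black bar is the mean of the log2 values turned back to signal, and the dotted line is the signal of 50 used as the filter. After MeJA the Col and jaz10 points of both genes lie below all phyb and jaz10phyb points, and the open points lie on the side of the other treatment.

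The order of the 8 groups was the same for both genes, by mean of log2(signal + 1). It ran from phyb Control (7.06 ± 1 for BZIP34, 6.26 ± 1.05 for BZIP61; SD, n = 3) through jaz10phyb Control, Col Control and jaz10 Control to phyb MeJA, jaz10phyb MeJA, jaz10 MeJA and Col MeJA (4.79 ± 0.38 and 3.6 ± 0.05, n = 2). The 4 Control groups overlapped one another, and so did the Col and jaz10 groups after MeJA. For both genes there was no overlap between jaz10phyb MeJA and jaz10 MeJA, which are next to each other in the order and have n = 2 each. How many of all genes show no such overlap was not counted. Without the 2 arrays the order was the same, with phyb Control at 7.63 ± 0.18 for BZIP34 and 6.82 ± 0.61 for BZIP61 (n = 2).

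In Col, the change after MeJA on the log2(signal + 1) scale was -2.18 for BZIP34 and -2.38 for BZIP61, that is 4.53-fold and 5.2-fold lower on that scale. In jaz10 the folds were 4.46 and 4.21 lower. In jaz10phyb they were 2.4 and 2.49 lower, with log2 changes of -1.26 ± 0.54 and -1.32 ± 0.55 (SE, n = 2 arrays per group). In phyb as labelled the log2 changes were -0.45 ± 0.44 and -0.42 ± 0.45 (n = 3), and without the 2 arrays they were -1.48 ± 0.22 and -1.43 ± 0.27 (n = 2). Every MeJA array of Col, jaz10 and jaz10phyb lay below every Control array of its genotype for both genes, and in phyb the groups overlapped until the 2 arrays were left out. The genes were chosen for this fall, and groups of 2 arrays separate easily. The share of all genes separated in this way was not counted.

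These values chose the genes and support nothing by themselves. Over all 5689 genes, limma called 14.7% for MeJA in Col, 8.74% in jaz10, 0.0352% in jaz10phyb and 0% in phyb at an adjusted p under 0.05 (198 phyb genes at an unadjusted p under 0.05). The shares were 31.1%, 24.6%, 18.6% and 16.3% without the 2 arrays. Ranked from the most negative log2 change, BZIP61 was number 4 and BZIP34 number 7 of 5689 in Col, and numbers 5 and 4 in jaz10. They were numbers 21 and 26 in jaz10phyb. In phyb they were numbers 70 and 51 on 18 arrays, and numbers 14 and 12 without the 2 arrays. In bulk RNA of whole plants, fewer cells that hold a transcript and less transcript per cell cannot be told apart.

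**Figure D2:**
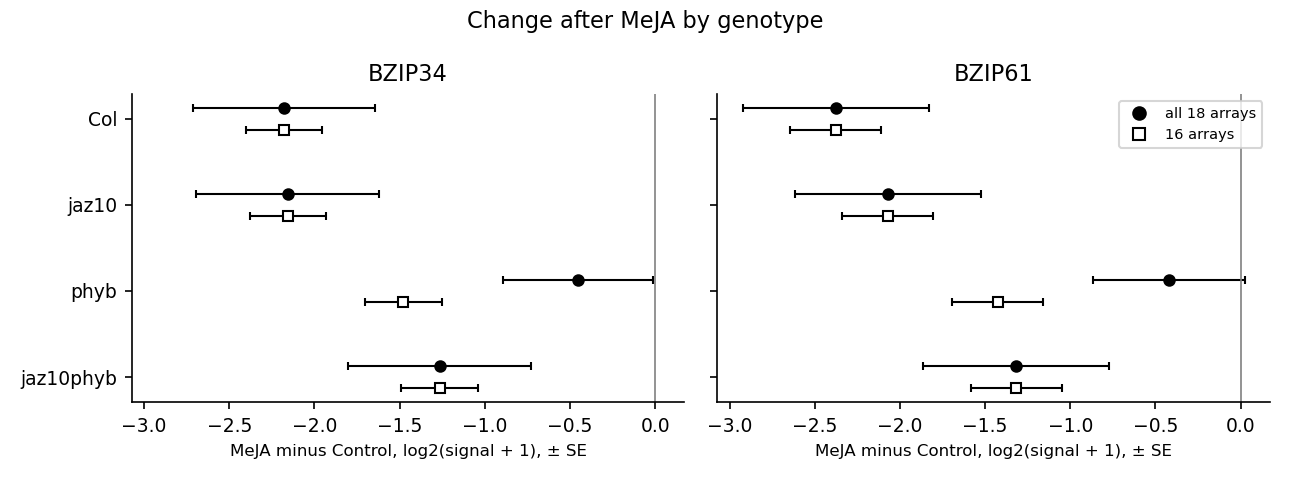
Difference between MeJA and Control on the log2(signal + 1) scale (horizontal, bars are ± SE from limma) for each genotype, with all 18 arrays (filled circles) and without phyb Control 2 and phyb MeJA 3 (open squares). In Col and jaz10 the values of both genes lie between -2.38 and -2.07, and in jaz10phyb they are -1.26 and -1.32; the 2 arrays move the phyb value.

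The size of the MeJA change was also set side by side between genotypes. The change in jaz10phyb was less negative than in jaz10 by 0.89 ± 0.76 for BZIP34 and 0.75 ± 0.77 for BZIP61, and less negative than in Col by 0.91 ± 0.76 and 1.06 ± 0.77 (SE). Leaving the 2 arrays out gave the same jaz10phyb differences with SEs of 0.32 and 0.38. The change in phyb was less negative than in Col by 1.73 ± 0.69 for BZIP34 and 1.95 ± 0.71 for BZIP61 on 18 arrays, and by 0.7 ± 0.32 and 0.95 ± 0.38 on 16. The response of jaz10phyb minus that of phyb turned sign between the fits, from -0.81 ± 0.69 and -0.9 ± 0.71 on 18 arrays to 0.21 ± 0.32 and 0.11 ± 0.38 on 16. The responses of jaz10 and Col differed by 0.02 ± 0.76 and 0.3 ± 0.77. These differences are built from the responses that chose the genes and were not tested.

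The levels after MeJA were compared directly between genotypes. A choice by a strong fall after MeJA favours low MeJA values in Col, the baseline of the comparisons with Col here. It can do the same in jaz10, the other baseline, where the genes ranked 4 and 5 of 5689 for the fall. The p-values below are therefore likely too small. On 18 arrays phyb exceeded Col by 1.82 ± 0.49 for BZIP34 (limma adjusted p = 0.114) and by 2.24 ± 0.5 for BZIP61 (limma adjusted p = 0.055), with n = 3 and 2 arrays. The double mutant jaz10phyb exceeded Col by 0.97 ± 0.54 and 1.06 ± 0.55 (limma adjusted p = 0.446 and 0.412), and exceeded jaz10 by 0.96 ± 0.54 and 0.89 ± 0.55 (limma adjusted p = 0.727 and 0.754; n = 2 arrays per group). None of these passed over all genes, where limma called 0.967%, 0.492% and 0.0527% of genes in the 3 comparisons. The phyb difference of both genes had an unadjusted limma p under 0.05, as had 861 of 5689 genes. BZIP61 passed after quantile normalization (2.33, limma adjusted p = 0.0423) and after centring arrays on their medians (2.35, limma adjusted p = 0.0393). The shares of all genes called with these scalings were not counted.

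Without phyb Control 2 and phyb MeJA 3, the 2 doubted arrays, the phyb difference became smaller and its error smaller still. In phyb, BZIP34 exceeded its Col level by 1.37 ± 0.22 (limma adjusted p = 0.00651) and BZIP61 by 1.79 ± 0.27 (limma adjusted p = 0.00478), which are 2.58-fold and 3.45-fold. The BZIP61 values rest on Col MeJA signals of 11.42 and 10.88, below the medians of those arrays (16.67 and 17.5). The size of the BZIP61 differences from Col is therefore uncertain. Without the 2 arrays, every MeJA signal of BZIP61 lay below the filter signal of 50, the highest being 46.37 on phyb MeJA 2. BZIP34 was also below 50 on the MeJA arrays of Col (32.28 and 21.87) and jaz10 (25.05 and 28.59). These BZIP34 signals exceeded their array medians, but the size of its differences from Col and jaz10 is uncertain too. The jaz10phyb values stayed at 0.97 and 1.06 over Col, with SEs of 0.22 and 0.27 (limma adjusted p = 0.0364 and 0.0491). The differences of jaz10phyb from jaz10 did not pass (limma adjusted p = 0.0668 for BZIP34 and 0.16 for BZIP61). Shares called in these comparisons were 2.81%, 3.25% and 0.791% of genes. The 2 arrays had been doubted for their MeJA response, in which both genes take part, so the calls without them are not independent of that doubt. The jaz10phyb, jaz10 and Col arrays themselves were the same in both fits, and only the shared spread changed.

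Single arrays decided some of these calls on 16 arrays. For BZIP34 in phyb against Col the call was lost without Col MeJA 2 (1.1, limma adjusted p = 0.0784) and without phyb MeJA 2 (1.05, limma adjusted p = 0.0934), and for BZIP61 without phyb MeJA 2 (1.61, limma adjusted p = 0.0615). For BZIP34 in jaz10phyb against Col it was lost without Col MeJA 2 (0.7, limma adjusted p = 0.235), jaz10phyb MeJA 1 (0.85, limma adjusted p = 0.152) or jaz10phyb MeJA 2 (1.09, limma adjusted p = 0.0909). For BZIP61 in jaz10phyb against Col it held in 6 of 16 such fits, with values between 0.84 and 1.28 and limma adjusted p up to 0.209. On 18 arrays the phyb difference of BZIP34 passed without phyb Control 2 (limma adjusted p = 0.0172) or phyb MeJA 1 (0.0497), and that of BZIP61 without phyb Control 1 (0.0266), phyb Control 2 (0.00824) or phyb MeJA 1 (0.0387).

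The arrays of both genotypes without PHYB were also set against those of both genotypes with it, a comparison added after the data were seen. Among MeJA arrays, all 5 without PHYB lay above all 4 with it, by a mean of 1.48 for BZIP34 and 1.68 for BZIP61. Without the 2 arrays the means differed by 1.16 and 1.34, with all 4 arrays above all 4. Among Control arrays the differences were 0.09 and 0.24 on 18 arrays and 0.37 and 0.49 on 16 arrays, and the arrays overlapped. The grouping was made with the separation already in view, so these values are a description with no test. The share of all genes that separate in the same way was not counted.

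The oxidase genes did not rank the genotypes the same way after MeJA. Their mean log2 signal was 7.47 and 7.46 on the Col MeJA arrays, 7.41 and 7.44 in jaz10phyb, 8.1 and 8.02 in jaz10, and 6.67 and 6.5 on phyb MeJA 1 and 2. The jaz10phyb arrays were thus within 0.06 of Col for the oxidases, while their BZIP34 and BZIP61 values exceeded Col by 0.97 and 1.06. This holds for levels after MeJA only. In Control plants the oxidase means were 5.47 and 5.21 in jaz10phyb, against 4.15 and 4.08 in Col. The MeJA response of jaz10phyb minus that of Col was -0.99 for AT5G05600, -1.81 for JRG21 and -0.99 for AT2G38240. Of these only JRG21 passed, on 16 arrays (limma adjusted p = 0.028). Whether the oxidases and the 2 bZIP genes share a cause was not tested.

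**Figure D3:**
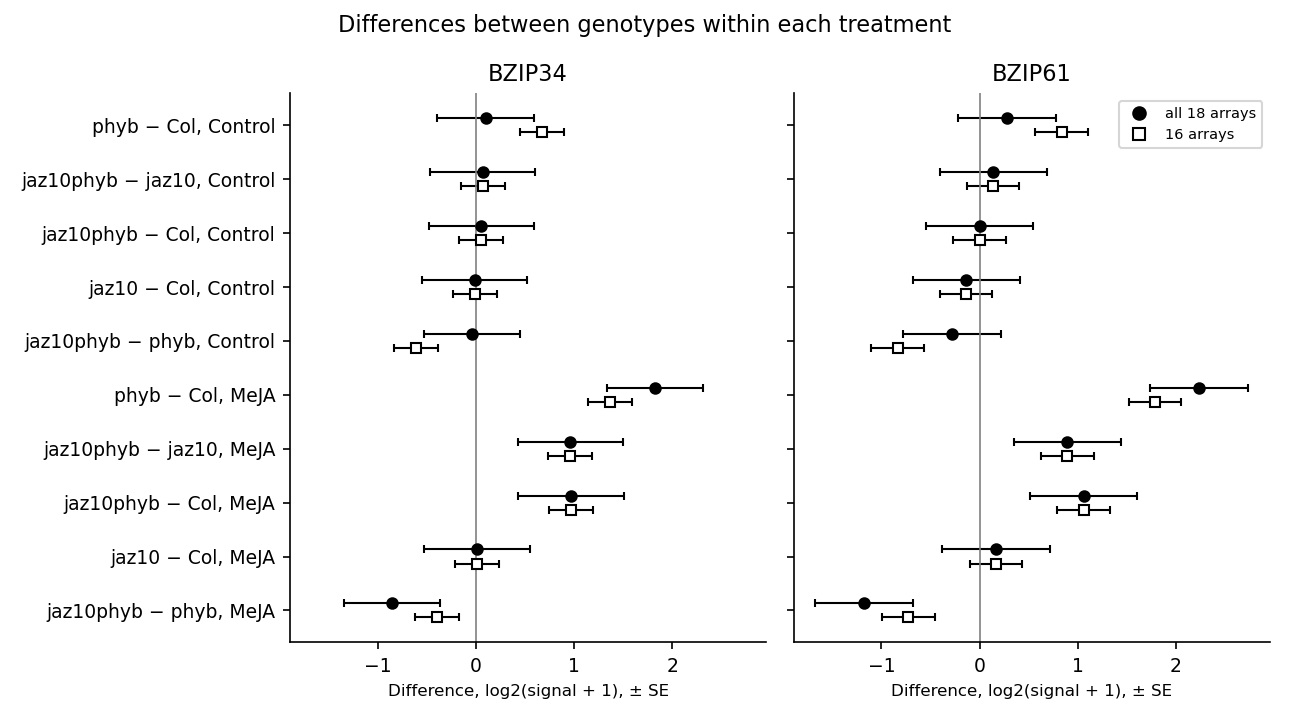
Differences between genotypes within Control and within MeJA plants on the log2(signal + 1) scale (horizontal, bars are ± SE from limma), for all 18 arrays (filled circles) and 16 arrays (open squares). After MeJA the 3 comparisons of a genotype without PHYB against one with it lie between 0.89 and 2.24 for both genes, and jaz10 against Col lies near 0.

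No difference between jaz10 and Col passed for either gene. After MeJA jaz10 differed from Col by 0.01 ± 0.54 for BZIP34 and 0.17 ± 0.55 for BZIP61, and in Control plants by -0.01 ± 0.54 and -0.14 ± 0.55 (SE, n = 2; limma adjusted p between 0.974 and 1). The SEs were 0.22 and 0.27 on 16 arrays. At these SEs the differences of jaz10phyb from jaz10 after MeJA, 0.96 for BZIP34 and 0.89 for BZIP61, did not pass. A difference of that size between jaz10 and Col could therefore have been missed. Limma called 0.0527% of genes in MeJA plants and 0% in Control plants (181 genes at an unadjusted p under 0.05) for this comparison, and 0.0879% and 0.0352% on 16 arrays. The double mutant was also set against phyb. After MeJA jaz10phyb minus phyb was -0.85 for BZIP34 and -1.17 for BZIP61 on 18 arrays (limma adjusted p = 0.624 and 0.561), and the differences were -0.4 ± 0.22 and -0.73 ± 0.27 on 16 arrays (limma adjusted p = 0.77 and 0.554). Neither passed, against 0% of genes called on 18 arrays (505 at an unadjusted p under 0.05) and 0.105% on 16.

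In mock-sprayed plants no genotype difference of either gene passed in limma, on 18 or 16 arrays. On 18 arrays the 10 values lay between -0.28 and 0.28, and all had an unadjusted p over 0.05. Without phyb Control 2 and phyb MeJA 3, phyb exceeded Col by 0.67 ± 0.22 for BZIP34 and 0.84 ± 0.27 for BZIP61 (limma adjusted p = 0.244 and 0.226). In the same fit jaz10phyb minus phyb was -0.61 and -0.83 (limma adjusted p = 0.46 and 0.382). These 4 values had an unadjusted limma p under 0.05. So had 648 of 5689 genes for phyb minus Col and 445 for jaz10phyb minus phyb. The arrays phyb Control 1 and 3 lay above every Control array of the other genotypes for both genes. The share of all genes that separate in this way was not counted. Leaving out phyb Control 2 alone gave the same phyb difference from Col with SEs of 0.38 and 0.41 (limma adjusted p = 0.692 and 0.629). The double mutant stayed within 0.06 ± 0.22 of Col for BZIP34 and 0 ± 0.27 for BZIP61, and within 0.07 and 0.14 of jaz10. For phyb against Col, jaz10phyb against Col, jaz10phyb against jaz10 and jaz10phyb against phyb, limma called 0.475%, 0.229%, 0.0703% and 0.0352% of genes on 18 arrays, and 1.02%, 1.39%, 0.58% and 0.158% on 16.

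The 2 genes were each other's nearest match among all genes tested. Over the 18 arrays their log2 signals had a Pearson r of 0.976, and of the 5688 other genes none had a higher r with BZIP34 or with BZIP61. On 16 arrays r was 0.975 and the rank was again 1 for both. The arrays fall into a treated and an untreated cluster, which a value over all arrays mixes. Among the 8 Control arrays of the 16, r was 0.891 and Spearman's rho 0.786, and among the 8 MeJA arrays they were 0.944 and 0.905. As deviations from group means, r was 0.912 on 18 arrays and 0.534 on 16. These are descriptions with no test, since the genes were picked as a pair. All arrays are shared between both genes, and whether the 2 probe sets hold probes that can bind both transcripts was not tested.

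Within an array BZIP34 exceeded BZIP61 by between 0.52 and 1.42 on the log2 scale, with a median of 0.98 and an SD of 0.25. The smallest gap was on phyb Control 1 and the largest on Col MeJA 1. On the same log2 scale BZIP34 ran over the arrays from 4.515 to 7.763 (signals of 21.87 to 216.2). BZIP61 ran from 3.57 to 7.243 (signals of 10.88 to 150.4). Both ranges hold the fall after MeJA by which the genes were chosen.

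**Figure D4:**
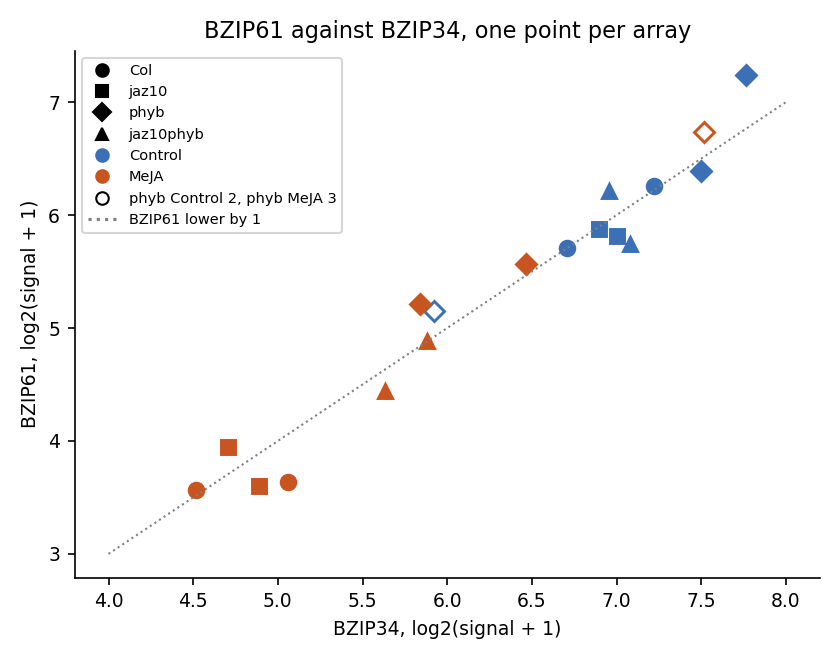
BZIP61 against BZIP34, both as log2(signal + 1), with a point for each of the 18 arrays; shape is the genotype, colour the treatment, open points are phyb Control 2 and phyb MeJA 3, and the dotted line marks BZIP61 lower by 1. The gap between the genes runs from 0.52 to 1.42; the filled jaz10phyb and phyb MeJA points lie between the Col and jaz10 MeJA points and the filled Control points, phyb MeJA 3 lies among the Control points and phyb Control 2 among the phyb and jaz10phyb MeJA points.

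None of the other bZIP genes tested was called lower after MeJA. Of 74 bZIP genes listed by group, 34 had a named probe set and 10 passed the signal minimum, which leaves 8 beside BZIP34 and BZIP61. In group I, from which VIP1 is a named partner, these were BZIP18 (AT2G40620), BZIP29 (AT4G38900), BZIP30 (AT2G21230), POSF21 (AT2G31370) and BZIP69 (AT1G06070). None of these 5 was called for MeJA in any genotype on 18 or 16 arrays, and their changes in Col lay between -0.3 and 0.1. In Col limma called 14.7% of all genes tested on 18 arrays and 31.1% on 16. Those called lower there were 369 and 923 of 5689. At such shares, lists of 5 or 8 genes are too small to set the bZIP family apart from all genes. The other tested gene listed with group E, AT1G58110, had signals of 233.2 and 212.3 on Col Control arrays and 230.9 and 227.7 on Col MeJA arrays, a change of 0.04 ± 0.11 (limma adjusted p = 0.807). Over the 8 genes the median change in Col was -0.09, against -0.02 over all genes tested, and bZIP19, the zinc deficiency factor of group F, changed by -0.1 ± 0.11 (limma adjusted p = 0.566).

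BZIP53, a group S factor of seed maturation and of amino acid metabolism under low energy, moved the other way. Its signal was 89.64 and 88.5 on Col Control arrays and 148 and 164.1 on Col MeJA arrays. It rose by 0.8 ± 0.19 in Col (limma adjusted p = 0.0295), and was the 1 gene of the 8 called there. Over all genes tested 14.7% were called in Col on 18 arrays, so 1 call among 8 genes is no result about the family. The call was lost without any of the 4 Col arrays (limma adjusted p between 0.0898 and 0.145) and without the filter (0.0521). On 16 arrays BZIP53 was called in all 4 genotypes, with changes of 0.8, 0.36, 0.57 and 0.8 in Col, jaz10, phyb and jaz10phyb (SE 0.1; limma adjusted p of at most 0.0189). In the same order limma called 31.1%, 24.6%, 16.3% and 18.6% of all genes there. On those arrays AT1G58110 also passed, in jaz10 only, at 0.35 ± 0.11 (limma adjusted p = 0.0267). Its response in jaz10 differed from that in Col by 0.31 ± 0.15, which did not pass (limma adjusted p = 0.517).

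Between genotypes, none of the 8 was called in any of the 10 comparisons on 18 arrays. On 16 arrays BZIP30, also named AT2G21230, was lower in jaz10phyb than in Col in Control plants (-0.62 ± 0.12, limma adjusted p = 0.0223), and no other call was made among the 8. Limma called 1.39% of all genes in that comparison. VIP1, the group I factor that was not analysed here, and bZIP43 of group S, whose signal never exceeded 4.68, are the partners named for BZIP34 and BZIP61 in binding assays.

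**Figure D5:**
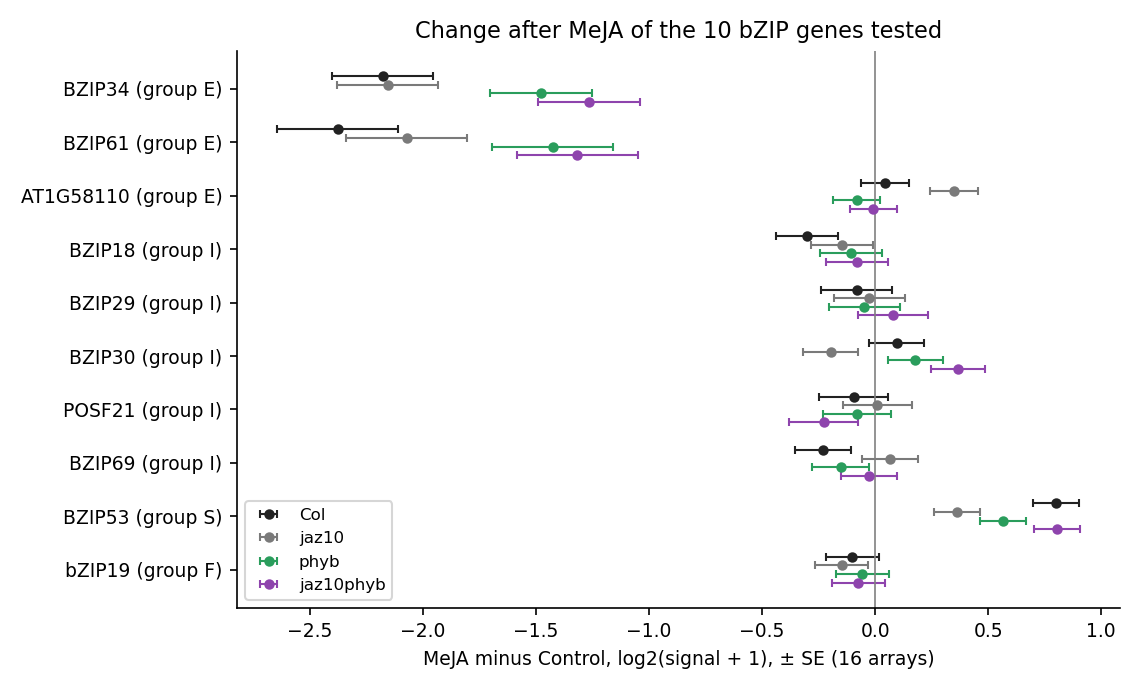
Change after MeJA on the log2(signal + 1) scale (horizontal, bars are ± SE from limma on 16 arrays) of the 10 bZIP genes tested, by genotype (colour). BZIP34 and BZIP61 lie between -2.38 and -1.26, BZIP53 lies above 0 in every genotype, and the other 7 genes lie between -0.3 and 0.37.

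A symbol was given for 854 of the 5689 genes tested, and likeness was read among these, so genes without a symbol that ranked higher are not named. The ones whose pattern was most like BZIP34 over the 18 arrays were DRT100, a leucine-rich repeat protein gene (AT3G12610, Pearson r = 0.957), GAMMA-VPE, a vacuolar protease (AT4G32940, 0.95), PWD, a starch-degrading dikinase (AT5G26570, 0.948), CBL, the cystathionine beta-lyase of methionine synthesis (AT3G57050, 0.935), and GI, the clock and flowering gene GIGANTEA (AT1G22770, 0.93). For BZIP61 they were DRT100 (0.929), PWD (0.928), GAMMA-VPE (0.927), DJ1F (AT3G54600, 0.927) and JKD, a zinc-finger factor known from root patterning (AT5G03150, 0.921). Among all genes tested, DRT100 was number 7 for BZIP34 and number 18 for BZIP61. DRT100, PWD and GAMMA-VPE stood in both sets. On 16 arrays DJ1F took the place of GI for BZIP34, and GLR2.7, a glutamate receptor-like gene (AT2G29120, 0.951), took that of DRT100 for BZIP61. Likeness here is r of log2 signals over arrays that share the same treatment contrast. The signal ranges differed widely, from 12.98 to 70.06 for DRT100 and from 446 to 790 for PWD, so a like pattern was not a like size of change.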

How the data were processed

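RNA from 18 pools of whole plants was hybridised to Affymetrix GeneChip arrays for Arabidopsis genes. The deposited values are probe set signal intensities on a linear scale, which the authors obtained from Affymetrix Expression Console according to the submitters' processing notes. How probes were summarised, and with which version and build, is not given in the sources used here. That the scale is linear follows from the values. Groups and replicate numbers came from the sample titles.

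A platform annotation paired 16722 probe sets with 1 gene, 759 with several and 20927 with none. Identifiers of 16574 were matched to symbols of TAIR10.1. The brightest probe set of each gene was kept where its signal reached 50 on any array (5689 genes). Values were analysed as log2(signal + 1) in limma 3.58.1 (R 4.3.3) with 8 group means, a shared spread with 10 residual degrees of freedom (8 on 16 arrays) and Benjamini-Hochberg adjustment over all genes, with calls under 0.05. A fold change on this scale understates the change of dim genes. The number of arrays limits the precision. The code of the fit was also run on simulated normal values with changes put in a single group. That run checks the code and says nothing of how well the fit suits these data.

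Both genes, the bZIP lists and the naming rule were chosen with earlier results of these data known. The rule named both genes, the bZIP genes tested, 5 genes with a symbol of highest Pearson r for each, the oxidases and the tissue markers. No clear pairing of the arrays by replicate number was seen: of 29 same-numbered pairs, 2 had correlated deviations over 0.1, and values ran from -0.721 to 0.602. Between groups of 2 arrays both numbers give the same value by construction, so the 29 are not separate checks. The values of -0.721, 0.452 and 0.602 all came from phyb Control with phyb MeJA, the groups that hold the 2 doubted arrays. Alternatives were other filters, pseudocounts and scalings, a replicate block, separate fits, other variance settings, all probe sets, the 2 doubted arrays left out, and each array left out in turn.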

Additional observations from a re-analysis of the deposited data

How the results depend on the processing

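Leaving out phyb Control 2 and phyb MeJA 3 brought the MeJA-arm differences of BZIP34 (1.37 for phyb minus Col, 0.97 for jaz10phyb minus Col) and BZIP61 (1.79 and 1.06) past the threshold. These calls are no independent support, since the genes were chosen by their fall after MeJA and the 2 arrays were doubted for their MeJA response. Leaving the 2 arrays out moved the MeJA change in phyb from -0.45 to -1.48 for BZIP34 and from -0.42 to -1.43 for BZIP61. The difference in response moved to 0.7 and 0.95 for phyb minus Col, and turned sign to 0.21 and 0.11 for jaz10phyb minus phyb. For phyb minus Col after MeJA, BZIP61 also passed with quantile normalization (2.33) and median centring (2.35), where shares of all genes called were not counted. In separate fits of 2 groups, jaz10phyb minus jaz10 passed for BZIP34 (0.96) and jaz10phyb minus Col for BZIP61 (1.06), both after MeJA. Each of these fits rests on 2 arrays per group. The shares of all genes called in them were not counted, so these calls are no added support. A pseudocount of 16 moved the changes of BZIP34 in Col, jaz10 and jaz10phyb to -1.71, -1.7 and -1.07 and those of BZIP61 to -1.53, -1.33 and -0.95. It moved the difference in response of jaz10phyb minus jaz10 to 0.63 for BZIP34 and 0.38 for BZIP61, and that of jaz10phyb minus Col to 0.58 for BZIP61, by construction, since it shrinks dim values.

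With each array left out, phyb minus Col after MeJA ran from 1.37 to 2.21 for BZIP34 and 1.79 to 2.55 for BZIP61 on 18 arrays, and from 1.05 to 1.68 and 1.61 to 1.96 on 16. On 16 arrays jaz10phyb minus Col ran from 0.699 to 1.24 for BZIP34 and 0.84 to 1.28 for BZIP61, and jaz10phyb minus jaz10 from 0.84 to 1.08 for BZIP34. Where an arm was left with 1 array, it was assumed to vary like the other groups.

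The replicate block left all genotype calls of BZIP34 and BZIP61 as they were, with phyb minus Col after MeJA at 1.49 and 1.98, and 2 of 6 phyb arrays matched their own number best. The cause of the changes was not tested. Counts of genes called on 18 and 16 arrays were 27 and 58 for phyb minus Col, 0 and 2 for jaz10 minus Col, 13 and 79 for jaz10phyb minus Col, 4 and 33 for jaz10phyb minus jaz10 and 2 and 9 for jaz10phyb minus phyb in Control plants. After MeJA they were 55 and 160, 3 and 5, 28 and 185, 3 and 45, and 0 and 6. For MeJA in Col, jaz10, jaz10phyb and phyb they were 837 and 1771, 497 and 1400, 2 and 1058, and 0 and 926.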
